A study of Mus musculus with 15 samples.

Results

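The comparison described here sets liver gene expression in mice labelled Sirt3 knockout on a high salt diet against the same genotype on a normal salt diet. It was chosen by the sample titles and uses 6 of the 15 libraries of the series, 3 on high salt (KO HSD 1 to 3) and 3 on normal salt (KO NSD 1 to 3). All genes of the deposited count table were considered. Both groups carried the genotype label Sirt3-/- on the C57BL/6 strain and were labelled male, with an age of 6 months. The high salt diet contained 8% NaCl and the normal salt diet 0.4% NaCl, and feeding started at 6 weeks of age. The labels give the length of feeding as 4 months in one place and 8 weeks in another. The sources used here do not give the knockout allele. Nothing in the labels says that the 3 libraries of a group came from separate animals, so the spread behind the p-values is that between libraries and could be technical. Wild-type libraries from the same study, 3 on each diet (WT NSD and WT HSD), entered the same statistical fit. By its title, the study asked whether salt brings on inflammation in the liver and what part SIRT3 has in it.

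SIRT3 is a deacetylase of the mitochondrial matrix that depends on NAD+ and acts on enzymes of fatty acid oxidation, the urea cycle and the defence against oxidants. Hepatocytes make up most of the liver's mass, and the rest includes Kupffer cells (the resident macrophages), sinusoidal endothelial cells, stellate cells, bile duct cells and passing leukocytes. The liver is also one of the organs in which males and females differ most in transcript levels, largely through the sex-specific rhythm of growth hormone release acting on the transcription factor STAT5b. In bulk RNA, fewer cells of a type and less RNA per cell cannot be told apart.

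The 6 libraries held 18746643 to 19539406 expected counts each, with 12421 to 13036 genes at 10 counts or more. CPM below stands for TMM-adjusted counts relative to the library's total, and sets of 3 values run from replicate 1 to 3 with normal salt first. Hepatocyte genes were present in every library, with albumin (Alb) at 72350 to 112600 CPM and the transcription factor Hnf4a at 354 to 558 CPM, so the tissue label held. Sirt3, the targeted gene, was present in all 6 libraries at 64.1, 42.6 and 43.1 CPM on normal salt and 61.4, 67.6 and 55.7 CPM on high salt. Those levels span the wild-type mean on normal salt of 51.0 ± 1.8 CPM (SD, n = 3), so the transcript does not check the genotype label, and a deletion of part of the gene would not show in gene counts. Sirt3 was not called between the diets, with a log2 fold change of 0.30 ± 0.18 (SE; adjusted p = 0.763, edgeR).

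Before any result, 2 of the 6 libraries went against their sex label. The Y-linked helicase gene Ddx3y was at 0.197 CPM in the first normal salt library and at 0 CPM in the third, against 30.9 CPM in KO NSD 2 and 29.8 to 36.2 CPM in the 3 KO HSD libraries. The Y-linked demethylase gene Kdm5d followed, with 0.0492 and 0 CPM in KO NSD 1 and 3 and 9.51 CPM in KO NSD 2. Eif2s3y stood at 0.886 and 0.529 CPM in those libraries and 35.7 CPM in KO NSD 2. Uty, also Y-linked, was reduced but present, at 1.43 and 1.25 CPM in KO NSD 1 and 3 and 8.54 CPM in KO NSD 2. Xist, the transcript of the inactive X in females, was not found in the count table. The library labelled KO NSD 1 and the library labelled KO NSD 3 therefore nearly lacked Y-linked transcripts other than Uty, while the other 4 had them. Since both lie in the normal salt group, the absence of Y-linked transcripts and the diet cannot be told apart in this group beyond KO NSD 2, and the main results and most lists are also given without both libraries. In that fit KO NSD 2 stands alone for normal salt, and its variation is taken to be that of the remaining groups.

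On the first principal component, which carried 52% of the variance of the 500 most variable genes over 12 libraries, KO NSD 1 and KO NSD 3 lay at -43.88 and -32.86. KO HSD 1 was next at -25.84, KO HSD 2 and KO NSD 2 lay at -7.20 and -2.56, and KO HSD 3 lay at 16.59 among the wild-type libraries. The diets thus overlapped on this axis. Among 3431 genes for which KO NSD 1 and KO NSD 3 both lay outside the KO HSD range on the same side, KO NSD 2 lay with them for 1522 (44.4%) and inside or beyond the KO HSD range for 1909 (55.6%). The spread within the groups was alike all the same, with a median SD over genes on the log2(CPM + 0.5) scale of 0.23 for normal salt and 0.216 for high salt.

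**Figure D1:**
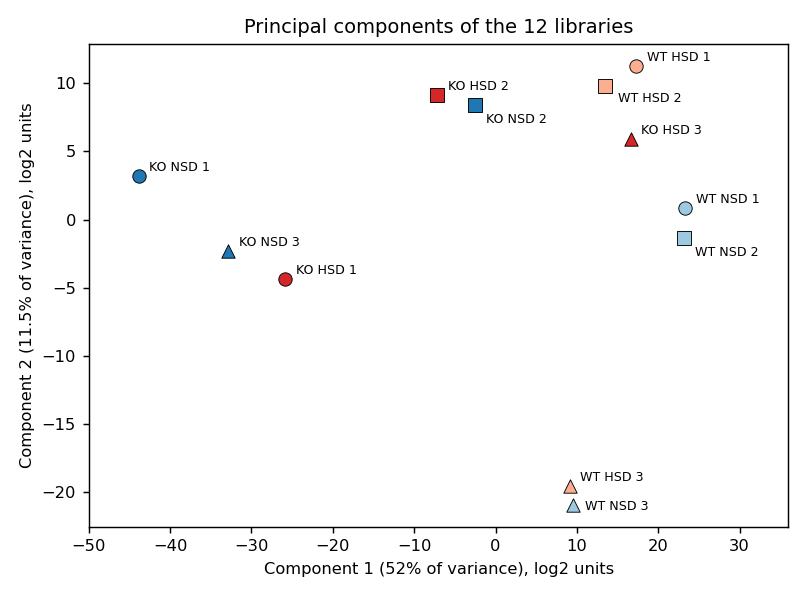
Positions of the 12 libraries on the first 2 principal components (log2 units; circles, squares and triangles are replicates 1, 2 and 3, colours are the 4 groups). KO NSD 1 and 3 sit at the left, at -43.88 and -32.86, with KO HSD 1 nearest to them, and KO HSD 3 lies with the wild-type libraries.

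No gene passed an adjusted p of 0.05 between the diets in edgeR's quasi-likelihood test (0 of 13051 genes, 0%), and the smallest adjusted p was 0.303. At an unadjusted p under 0.05 there were 1051 genes, 333 higher on high salt (2.55%) and 718 lower (5.5%). All 3 high salt libraries lay above all 3 normal salt libraries for 747 genes (5.72%) and below them for 775 (5.94%), and the median log2 fold change over all genes tested was -0.002. Limma-voom called 0 genes as well, with 1034 at an unadjusted p under 0.05. DESeq2 called 50, of which 22 were higher and 28 lower on high salt. Of those 50, Gm14434 and Rps27rt were at 0 CPM in all 3 normal salt libraries and in at least 1 high salt library. The DESeq2 fit used all 12 libraries, KO NSD 1 and 3 included. Its calls also held Cyp3a41a (adjusted p = 8.11e-05), at 1780, 0 and 1360 CPM in KO NSD 1 to 3. Cux2 was called too (adjusted p = 0.0314), at 74.0, 3.78 and 8.27 CPM in KO NSD 1 to 3. Without KO NSD 1 and 3, edgeR again called 0 of 13530 genes, with 673 at an unadjusted p under 0.05 (4.97%) and a smallest adjusted p of 0.254. Words such as higher and lower below therefore describe levels in these libraries, not calls of the edgeR test, unless DESeq2 is named.

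The 10 genes lower on high salt with the smallest p included C5ar1, Gdf2, Cxcl13, Postn, Ifitm1, Limk1, Slc15a2, Ecm1 and Tmem98, with adjusted p from 0.303 to 0.39 in edgeR. DESeq2 called all 10, with adjusted p from 0.00185 to 0.0314. C5ar1, the receptor for the complement fragment C5a on neutrophils and macrophages, stood at 2.17, 2.76 and 1.73 CPM on normal salt and at 0.315, 0.715 and 0.382 CPM on high salt. The lowest normal salt library was thus well above the highest high salt library, and KO NSD 2 was the highest of all. Its log2 fold change was -2.22 ± 0.38 (SE, adjusted p = 0.303, edgeR) and -2.53 without KO NSD 1 and 3.

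Cxcl13, a chemokine that draws B cells, stood at 15.1, 4.92 and 8.13 CPM on normal salt and 1.95, 2.2 and 0.982 CPM on high salt. The groups did not overlap, and the normal salt library with Y-linked transcripts, KO NSD 2, was the lowest of its group. The log2 fold change was -2.45 ± 0.50 (SE, adjusted p = 0.39, edgeR), and -1.51 without KO NSD 1 and 3.

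Gdf2 encodes BMP9, a ligand made by stellate cells that acts on endothelium. It stood at 20.7, 17.5 and 24.1 CPM on normal salt and 7.36, 13.2 and 8.13 CPM on high salt, with a log2 fold change of -1.12 ± 0.22 (SE, adjusted p = 0.39, edgeR). Postn, the matrix protein periostin, stood at 8.02, 5.51 and 11.1 CPM against 3.42, 3.02 and 2.84 CPM. Ecm1, a secreted matrix protein, stood at 165, 118 and 190 CPM against 48.1, 77.8 and 72.6 CPM. For these 3 genes no high salt library reached the lowest normal salt library. Slc15a2, a transporter of small peptides, stood at 1.62, 3.24 and 1.44 CPM against 0.526, 0.275 and 0.164 CPM, a log2 fold change of -2.67 ± 0.56 (SE, adjusted p = 0.39, edgeR). It was highest in KO NSD 2, as was Limk1, a kinase of the actin cytoskeleton, at 3.51 CPM against 1.25 to 1.84 CPM on high salt. Ifitm1 and Tmem98 had log2 fold changes of -1.14 and -1.04. Without KO NSD 1 and 3 the log2 fold changes were -0.87 for Gdf2, -0.82 for both Postn and Ecm1, -3.29 for Slc15a2, -1.24 for Limk1, -0.70 for Ifitm1 and -0.78 for Tmem98.

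The 10 leading genes higher on high salt were Wdfy1, C8a, Sult2a8, Carmil1, Aifm3, Arhgap26, Egfr, Deptor, Ociad2 and Plekhb1, with adjusted p from 0.303 to 0.428 in edgeR. All 10 were called by DESeq2, with adjusted p from 5.13e-05 to 0.045. Wdfy1 stood at 10.3, 8.91 and 10.1 CPM on normal salt and 27.1, 17.4 and 22.9 CPM on high salt, the smallest p of the comparison. The 3 normal salt libraries were close together and well below the others, and the log2 fold change was 1.2 ± 0.20 (SE, adjusted p = 0.303, edgeR) and 1.34 without KO NSD 1 and 3.

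C8a, a chain of complement component C8 and a member of the male-biased list, stood at 284, 439 and 298 CPM on normal salt and 743, 841 and 744 CPM on high salt. Egfr, the epidermal growth factor receptor and another male-biased gene, stood at 126, 236 and 72.2 CPM against 393, 457 and 374 CPM. In both genes KO NSD 2 was the highest normal salt library yet stayed below every high salt library. Their log2 fold changes were 1.19 ± 0.20 and 1.49 ± 0.35 (SE, adjusted p = 0.303 and 0.428, edgeR), and 0.83 and 0.80 without KO NSD 1 and 3.

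Sult2a8, a liver sulfotransferase, stood at 90.7, 227 and 205 CPM on normal salt and 384, 542 and 678 CPM on high salt. Carmil1, a regulator of actin capping, stood at 6.35, 7.19 and 3.13 CPM against 16.4, 29.8 and 39.1 CPM, a log2 fold change of 2.36 ± 0.45 (SE, adjusted p = 0.39, edgeR). Deptor, an inhibitor of the kinase mTOR, stood at 142, 91.2 and 91.0 CPM against 171, 206 and 197 CPM. Each of the 3 was below the high salt range in every normal salt library, KO NSD 2 included. Aifm3, Arhgap26, Ociad2 and Plekhb1 had log2 fold changes of 0.81 to 1.19. Against KO NSD 2 alone the values were 1.25 for Sult2a8, 1.99 for Carmil1 and 1.08 for Deptor. Removing KO NSD 1 and 3 left the sign of all 20 leading genes as it was, but these were chosen for groups that lay apart and the sign is no separate evidence.

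**Figure D2:**
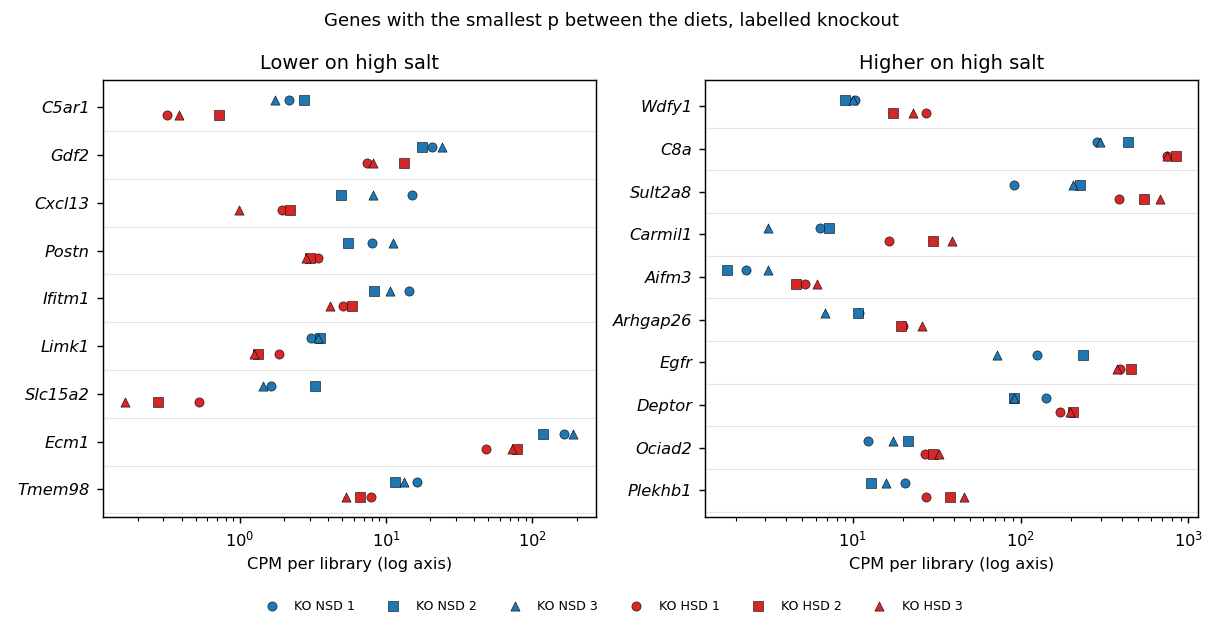
CPM per library (log axis) of 9 leading genes lower and the 10 higher on high salt, with KO NSD in blue and KO HSD in red and circles, squares and triangles for replicates 1, 2 and 3. No blue and red points of a gene overlap, as the choice by smallest p favours, and none passed the edgeR threshold.

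The wild-type libraries on normal salt give a point of reference whose group mean is not part of this contrast. They are not independent of it, since they entered the same fit and its estimate of spread, and so the p-values that chose the leading genes. For 9 of the 10 higher and 8 of the 10 lower genes, the WT NSD mean lay nearer to the KO HSD mean than to the KO NSD mean. The KO NSD mean includes the libraries that nearly lacked Y-linked transcripts, and their part in these counts was not tested. C8a stood at 693 ± 83 CPM and C5ar1 at 0.476 ± 0.14 CPM in WT NSD (SD, n = 3 each), beside the high salt knockout libraries. Over the 1522 genes whose diets did not overlap the share was 1079 (70.9%), against 7855 of all 13051 genes tested (60.2%). Slc15a2 was an exception, at 4.18 ± 1.6 CPM in WT NSD (SD, n = 3).

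Neutrophil markers were the list with the lowest median. Of 20 genes, 19 were tested and 18 of these had a lower mean on high salt; 11 had groups that did not overlap, all lower, against 5.94% of all genes. The median log2 fold change was -1.67, against -0.002 over all genes, and -0.86 without KO NSD 1 and 3. Earlier results of these data had already shown Retnlg, Itgam, Chil3, Pglyrp1, Fpr1 and S100a9 to be higher in KO NSD than in WT NSD, and that comparison shares the 3 KO NSD libraries, so the list is not independent support.

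S100a9, a calcium-binding protein abundant in neutrophils, stood at 60.8, 21.2 and 32 CPM on normal salt and 17.7, 7.65 and 3.27 CPM on high salt. Ngp, a neutrophil granule protein, stood at 63.5, 17.5 and 31.1 CPM against 10.3, 0.88 and 0.873 CPM. KO NSD 1 was the highest library and KO HSD 1 the highest of its diet in both, and the groups did not overlap. Their log2 fold changes were -1.99 ± 0.59 and -3.21 ± 0.92 (SE, adjusted p = 0.448 each, edgeR). S100a9, Ngp, Ltf and Camp were named after their values were seen. Ltf, the iron-binding granule protein lactoferrin, stood at 18.2, 7.62 and 12.3 CPM against 4.83, 0.33 and 0.491 CPM, and Camp, the antimicrobial peptide cathelicidin, at 10.7, 2.48 and 5.10 CPM against 1.68, 0.165 and 0.109 CPM.

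Chil3, a chitinase-like protein of myeloid cells, stood at 7.04, 6.27 and 4.42 CPM on normal salt and 1.68, 1.76 and 0.491 CPM on high salt, and DESeq2 called it (adjusted p = 0.0333). Retnlg, also called by DESeq2 (adjusted p = 0.0319), stood at 5.66, 3.35 and 3.90 CPM against 1.68, 1.49 and 0.491 CPM. In these genes KO NSD 2 lay with the other normal salt libraries, and without KO NSD 1 and 3 the log2 fold changes were -2.24 for Chil3, -1.44 for Retnlg, -1.14 for S100a9 and -2.11 for Ngp, none past the threshold. The markers Csf3r, Ly6g and Cxcr2, which encode surface proteins of mature neutrophils, had overlapping groups, and Cxcr2 was the only tested member with a higher mean on high salt. Summed over the list without Lcn2, which hepatocytes also make in the acute phase response, neutrophil markers came to 304, 109 and 161 CPM on normal salt and 85.6, 48.1 and 30.9 CPM on high salt, against 15.4 to 30.5 CPM in the wild-type libraries. With Lcn2 the sums were 1010, 520 and 281 CPM against 742, 484 and 43.2 CPM, and the diets overlapped.

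Macrophage markers were lower on high salt mainly against KO NSD 1 and 3. Of 28 tested Kupffer cell and macrophage markers 25 had a lower mean on high salt, 4 did not overlap in that direction (5.94% of all genes) and 1 in the other (5.72% of all genes), and the median log2 fold change was -1.01. Without KO NSD 1 and 3 the median was -0.02. The summed level was 1600, 629 and 1200 CPM on normal salt and 505, 908 and 462 CPM on high salt, so KO NSD 2 lay inside the high salt range. Msr1, a scavenger receptor of macrophages, was lower in all high salt libraries, at 13.4, 9.83 and 14.8 CPM against 5.57, 7.98 and 6.00 CPM, and DESeq2 called it (adjusted p = 0.0327). Fcgr4, an Fc receptor, stood at 13.5, 8.05 and 12.4 CPM against 4.52, 7.37 and 3.66 CPM, with the groups just apart. Against KO NSD 2 alone their log2 fold changes were -0.58 and -0.63.

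**Figure D3:**
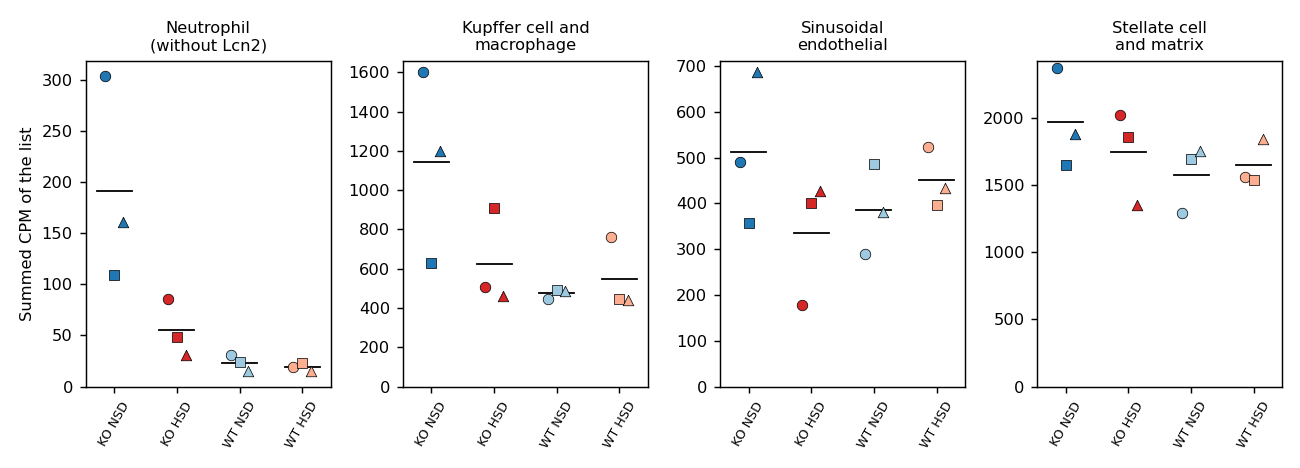
Summed CPM of 4 marker lists in each of the 12 libraries (points; circles, squares and triangles are replicates 1, 2 and 3; bars are group means; linear axes from 0). Neutrophil markers reached 304 CPM in KO NSD 1 and 15.4 to 30.5 CPM in the wild type, and for the macrophage list KO NSD 2 at 629 CPM lay within the KO HSD range.

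Other leukocyte lists were small. Of 17 T and NK cell markers tested 14 had a lower mean on high salt (median log2 fold change -0.52, and 0.01 without KO NSD 1 and 3), and Gzmb, the cytotoxic protease granzyme B, stood at 4.18, 1.08 and 2.26 CPM against 0.631, 0.825 and 0.491 CPM. Of 9 B and plasma cell markers 8 were lower, with a median of -1.28 and -1.08 in the 2 fits. The summed level of that list overlapped between the diets, at 365, 302 and 286 CPM on normal salt and 342, 326 and 264 CPM on high salt. Jchain, the joining chain of secreted antibodies, stood at 19.8, 13.5 and 30.7 CPM against 8.88, 5.88 and 8.02 CPM. The 9 tested genes of MHC class II presentation all had a lower mean on high salt (median -0.73). None had groups that did not overlap, against 5.94% of all genes lower, which says little for 9 genes. The median was 0.45 without KO NSD 1 and 3. Ctss, the protease that trims the class II invariant chain, showed this with 60.4, 22.6 and 52.4 CPM on normal salt and 21.9, 36.5 and 18.4 CPM on high salt.

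Inflammatory signalling genes had lower means, mainly against KO NSD 1 and 3. Of 29 tested cytokines, chemokines and NF-kB targets 23 had a lower mean on high salt, with 5 groups that did not overlap, all lower (5.94% of all genes), and a median log2 fold change of -0.28 (0.07 without KO NSD 1 and 3). Tnf, the cytokine tumour necrosis factor, stood at 1.08, 0.918 and 0.529 CPM against 0.158, 0.44 and 0.382 CPM. Vcam1, an adhesion molecule for leukocytes, stood at 13.5, 5.78 and 12 CPM against 4.62, 5.67 and 3.27 CPM, so that KO NSD 2 was barely above the high salt range. Without KO NSD 1 and 3 the log2 fold change was -1.47 for Tnf and -0.35 for Vcam1. In the inflammasome and pyroptosis list 7 of 15 tested genes were higher and 8 lower. Pycard, the adaptor ASC, and Casp1, the protease that cuts pro-interleukin-1 beta, were lower in every high salt library with log2 fold changes of -1.25 and -0.90, whereas Nlrp12, a NOD-like receptor, was higher, at 11.2, 17.2 and 8.66 CPM against 20.3, 18.1 and 30.1 CPM (log2 fold change 0.89). Against KO NSD 2 alone the log2 fold changes were -0.75 for Pycard, -0.46 for Casp1 and 0.42 for Nlrp12. Of 38 interferon response genes 33 had a lower mean on high salt (median -0.26), but without KO NSD 1 and 3 the median was 0.30.

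Of 35 complement and coagulation genes 32 had a higher mean on high salt. Groups did not overlap for 8 higher (against 5.72% of all genes) and 2 lower (against 5.94% of all genes). The median log2 fold change was 0.26, or 0.42 without KO NSD 1 and 3. C1ra, a protease of the first complement component, stood at 311, 278 and 263 CPM against 400, 388 and 367 CPM, and DESeq2 called it (adjusted p = 0.0202). Its partner C1s1 stood at 346, 319 and 320 CPM against 475, 453 and 415 CPM, and Klkb1, plasma prekallikrein, at 200, 164 and 181 CPM against 225, 250 and 328 CPM. Each was higher in all 3 high salt libraries, with log2 fold changes of 0.44 to 0.56, and 0.48 to 0.72 without KO NSD 1 and 3. Of 29 acute phase proteins 21 had a higher mean on high salt, at a median of 0.24. Groups that did not overlap numbered 0 higher (against 5.72% of all genes) and 1 lower (against 5.94% of all genes). The 1 lower was Serpina3m, a serine protease inhibitor, at 455, 530 and 610 CPM against 434, 336 and 192 CPM. Saa1, serum amyloid A, varied more within than between diets, at 314, 327 and 59.7 CPM on normal salt and 517, 686 and 49.3 CPM on high salt.

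Stellate cell and matrix genes had a lower mean for 19 of 22 tested, with 6 that did not overlap lower (5.94% of all genes) and 1 higher (5.72%), at a median log2 fold change of -0.61 that became -0.01 without KO NSD 1 and 3. Dcn, the matrix proteoglycan decorin, stood at 158, 110 and 166 CPM against 59.3, 78.3 and 75.6 CPM, and DESeq2 called it (adjusted p = 0.0269). Hhip, an inhibitor of hedgehog ligands, and Rgs5, a regulator of G protein signalling in pericytes, were highest in KO NSD 2, at 4.11 and 37.1 CPM, with KO HSD at 0.77 to 1.2 and 10.7 to 16.1 CPM. All 22 sinusoidal endothelial markers had a lower mean on high salt (median -0.55, and -0.13 without KO NSD 1 and 3), but only 1 had groups that did not overlap, a share near the 5.94% of all genes. That gene was Lyve1, the hyaluronan receptor of these cells, at 4.48, 5.08 and 7.89 CPM against 1.58, 1.87 and 1.91 CPM. DESeq2 called Lyve1 (adjusted p = 0.0278). Against KO NSD 2 alone the log2 fold change was -0.62 for Dcn, -2.11 for Hhip and -1.50 for Lyve1. Cdh5, the endothelial cadherin, overlapped, with KO NSD 2 at 11.2 CPM inside the high salt range of 6.52 to 13.2 CPM.

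Of 11 cholangiocyte markers tested 8 had a lower mean, with a median of -0.59, and of -0.19 with 7 lower and 4 higher against KO NSD 2 alone. Muc1, a mucin of bile duct cells, stood at 2.07, 2.05 and 1.54 CPM against 0.42, 0.935 and 1.15 CPM. Erythroid markers went both ways, with 9 of 12 tested lower. Alas2, the first enzyme of haem synthesis in red cell precursors, stood higher on high salt, at 18.1, 36.1 and 20.9 CPM against 39.1, 62.1 and 108 CPM, while Car2, a carbonic anhydrase, stood lower, at 7.97, 5.83 and 12.8 CPM against 5.26, 3.13 and 3.66 CPM. Of 21 adipocyte, pancreas and muscle markers found, 5 were at 0 in all 6 libraries (Retn, Ucp1, Cpa1, Myh4 and Myh1), and the list came to 9.83 to 29.5 CPM in all.

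Sex-biased liver genes departed most in KO NSD 1 and 3, which nearly lacked Y-linked transcripts, and KO HSD 1 departed from its diet in the same direction. Of 40 female-biased genes 33 were tested and all 33 had a lower mean on high salt (median log2 fold change -1.43), but only 2 did not overlap, a share near the 5.94% of all genes, and without KO NSD 1 and 3 the median was 0.60. Of 40 male-biased genes 38 had a higher mean on high salt, 7 did not overlap (5.72% of all genes), and the median of 1.48 was 0.61 without those libraries. As a mean deviation from the 12 libraries, female-biased genes stood at 3.17 and 2.98 log2 units in KO NSD 1 and 3 and 1.76 in KO HSD 1, against -0.14 in KO NSD 2. Male-biased genes stood at -3.21 and -2.50 in KO NSD 1 and 3 and -1.85 in KO HSD 1. They stood at -0.03 in KO NSD 2, which had Y-linked transcripts, against 1.54, 1.57 and 0.39 in WT NSD 1 to 3. The part of sex-biased genes in the other differences was not tested.

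Cyp3a41a, a P450 enzyme of female mouse liver, stood at 1780 and 1360 CPM in KO NSD 1 and 3, at 0 CPM in KO NSD 2 and at 0 to 0.683 CPM in KO HSD. Acot3, a thioesterase, stood at 154, 15.7 and 110 CPM against 27.8, 9.96 and 1.09 CPM, so KO NSD 2 lay within the high salt range. Cyp17a1, a steroid hydroxylase, was different, at 86.4, 75.4 and 105 CPM against 33.6, 52.5 and 3.44 CPM, with KO NSD 2 on the side of its group. Cux2, a repressor of male-biased genes, stood at 74.0, 3.78 and 8.27 CPM against 3.47, 0.77 and 0.546 CPM. The 7 female-biased genes that were not tested (A1bg, Cyp3a16, Hao2, Sult2a1, Sult2a2, Sult2a5 and Sult3a2) had too few libraries with counts, as for Sult2a1 at 129 and 266 CPM in KO NSD 1 and 3 and 0 to 0.054 CPM in the other 4.

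Male-biased genes differed among the high salt libraries too. Elovl3, a fatty acid elongase, stood at 0.443, 4.49 and 1.06 CPM on normal salt and 2.89, 19.7 and 109 CPM on high salt, against 504 CPM on average in WT NSD. Selenbp2, a selenium-binding protein, stood at 12, 44.6 and 14.3 CPM against 25.9, 236 and 663 CPM. KO HSD 3 was the highest and KO HSD 1 the lowest of the high salt libraries in both. Ugt2b1, a glucuronosyltransferase, and Bcl6, a repressor of female-biased genes, were higher in every high salt library, with Bcl6 at 34.8, 37.5 and 95.8 CPM against 15.5, 17.6 and 20.0 CPM. DESeq2 called Ugt2b1 (adjusted p = 0.0424).

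**Figure D4:**
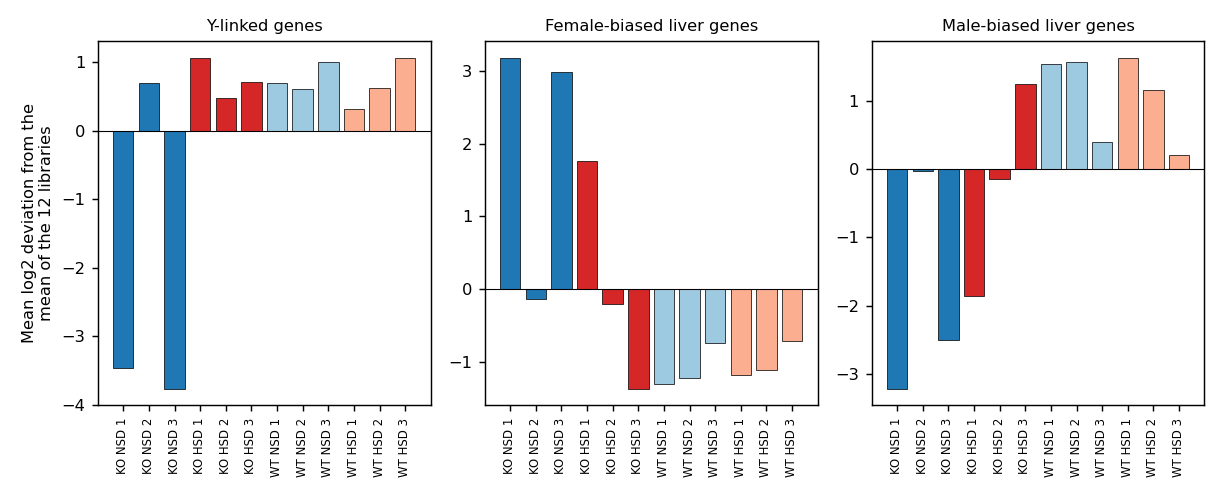
Mean deviation of each of the 12 libraries from their common mean (log2 units) over 4 Y-linked genes, the tested female-biased genes and the tested male-biased genes, coloured by group. KO NSD 1 and 3 stood low for the Y-linked and male-biased genes and high for the female-biased genes, and KO HSD 1, at 1.76 for the female-biased genes, lay between them and the rest while keeping Y-linked transcripts.

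Lists of core metabolism had medians near 0. Of 40 oxidative phosphorylation subunits 28 had a higher mean on high salt with a median log2 fold change of 0.03, ribosomal proteins had a median of 0.05, urea cycle and amino acid genes 0.00, and SIRT3 substrates and sirtuins 0.01. Otc, the urea cycle enzyme ornithine transcarbamylase and a known SIRT3 substrate, was higher in all high salt libraries, at 342, 211 and 285 CPM against 424, 441 and 365 CPM (log2 fold change 0.55 ± 0.19, SE, adjusted p = 0.5, edgeR). Acadl, a dehydrogenase of fatty acid oxidation also deacetylated by SIRT3, stood at 155, 186 and 212 CPM against 154, 135 and 145 CPM, so the groups barely parted (log2 fold change -0.35 in both fits).

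Fatty acid oxidation and PPAR-alpha target genes were lower for 27 of 38 (median -0.18, and -0.27 without KO NSD 1 and 3). Vnn1, the pantetheinase vanin-1, stood at 28, 48.2 and 68.2 CPM against 17.4, 11.1 and 19.8 CPM, and DESeq2 called it (adjusted p = 0.045). Cyp4a14, a fatty acid hydroxylase named after its values were seen, stood at 294, 6234 and 2687 CPM against 162, 32.9 and 177 CPM. Its log2 fold change was -4.63 ± 2.13 (SE, adjusted p = 0.639, edgeR). Its level also varied widely within WT NSD, at 9.43, 5.62 and 1889 CPM. Ehhadh, a peroxisomal enzyme of beta-oxidation, stood at 110, 859 and 653 CPM against 187, 115 and 134 CPM. Here KO NSD 1, not KO NSD 2, was the normal salt library close to high salt. The log2 fold changes of Vnn1 and Ehhadh were -1.58 and -1.89 with all libraries and -1.57 and -2.55 without KO NSD 1 and 3. Angptl4, an inhibitor of lipoprotein lipase, went the other way, at 31.4, 12.1 and 24.1 CPM against 76.0, 56.3 and 34.5 CPM.

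G6pc, the last enzyme of glucose release, stood at 58.7, 48.4 and 208 CPM on normal salt and 451, 277 and 474 CPM on high salt. Every high salt library was above every normal salt library, with a log2 fold change of 1.93 ± 0.58 (SE, adjusted p = 0.448, edgeR) and 3.06 without KO NSD 1 and 3. Mlxipl, the carbohydrate-sensing factor ChREBP, stood at 257, 187 and 211 CPM against 419, 354 and 356 CPM, and DESeq2 called it (adjusted p = 0.0336). Cholesterol synthesis genes had a median of -0.13, or -0.59 without KO NSD 1 and 3, with 9 of 25 higher on high salt.

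Among detoxification and growth hormone genes, Hmox1, the haem-degrading enzyme, was lower on high salt, at 32.9, 18.3 and 25.7 CPM against 12, 17.1 and 8.51 CPM. Ghr, the growth hormone receptor, was higher, at 275, 246 and 328 CPM against 422, 393 and 377 CPM, and Igfbp3, which binds IGF1, was lower, at 22.1, 14.4 and 28.1 CPM against 7.15, 8.36 and 13.4 CPM. For all 3 the diets did not overlap, with adjusted p of 0.454, 0.454 and 0.428 in edgeR. Their log2 fold changes were -1.03, 0.49 and -1.16, and -0.53, 0.70 and -0.57 without KO NSD 1 and 3. Circadian clock genes had a median of 0.01, and none had groups apart, against 5.72% of all genes higher and 5.94% lower. Immediate early genes had a median of 0.44, and 1.01 without KO NSD 1 and 3. Egr1, one of their transcription factors, showed the spread, at 15.6, 11.4 and 46.5 CPM against 28.2, 46.3 and 129 CPM. In the osmotic and renin-angiotensin list 10 of 25 were higher and the median was -0.09.

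**Figure D5:**
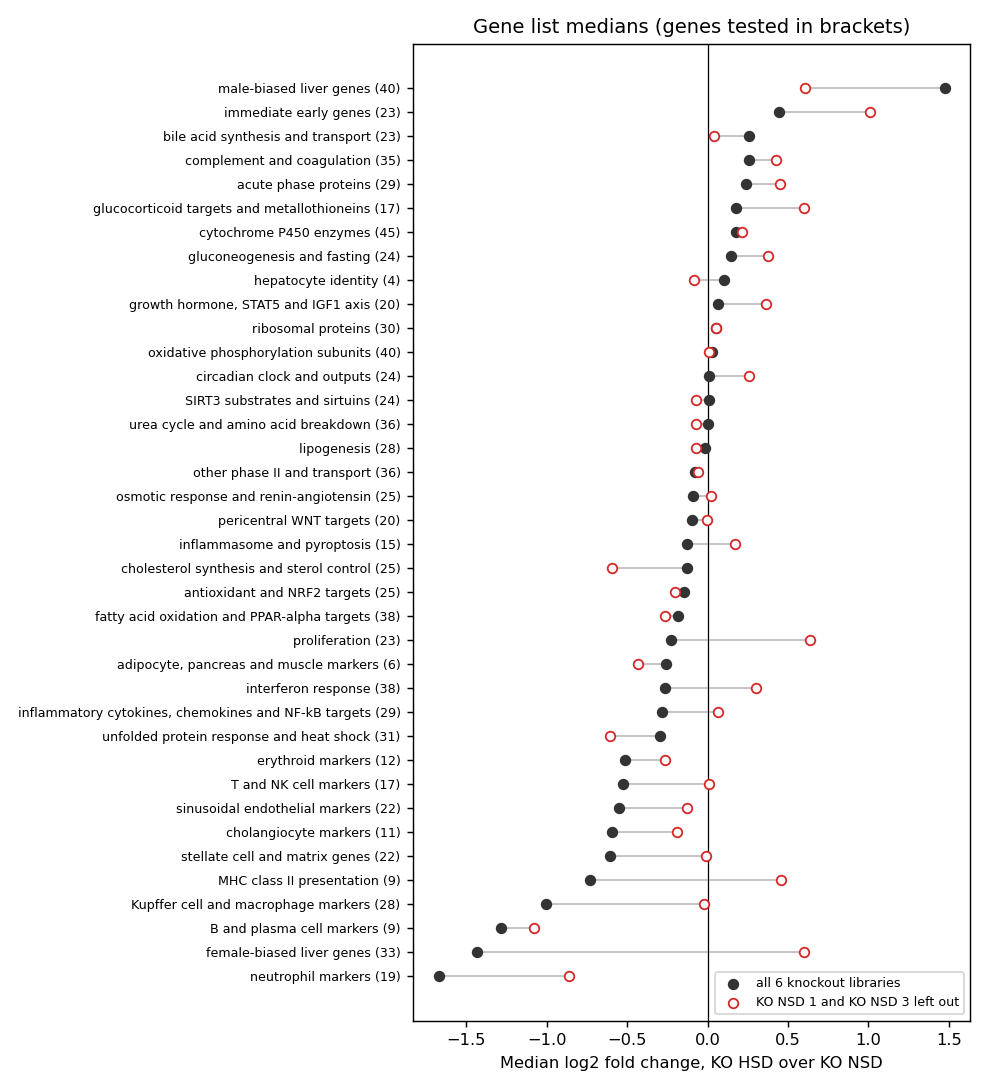
Median log2 fold change (KO HSD over KO NSD) of each gene list with all 6 knockout libraries (filled) and with KO NSD 1 and 3 left out (open), with the number of tested genes in brackets. The neutrophil and B cell medians stayed below 0 at -0.86 and -1.08, whereas the female-biased median went from -1.43 to 0.60 and the MHC class II median from -0.73 to 0.45.

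Against KO NSD 2 alone, 2 of the 10 higher genes with the smallest p, Aifm3 and Deptor, were also among the 10 of the full comparison. Higher on high salt were Lipc, Abcg8, Tmem50a, Slc25a47, Aspg, Calcoco1, Haus4, Scnn1a, Aifm3 and Deptor, and lower were Srxn1, Myom3, Hyou1, Ehhadh, Tuba8, Hsd17b10, Sdsl, Hspa5, Gpam and Gpx3, with adjusted p from 0.254 to 0.525 in edgeR. Slc25a47, a mitochondrial carrier of hepatocytes, stood at 339, 107 and 180 CPM on normal salt and 440, 433 and 545 CPM on high salt. Abcg8, which exports sterols into bile, stood at 95.4, 35.5 and 51.6 CPM against 136, 133 and 102 CPM. Both were higher in every high salt library. Lipc, hepatic lipase, was not, at 138, 54.0 and 91.6 CPM against 134, 129 and 141 CPM, and Srxn1, which repairs peroxiredoxins, stood at 28.2, 78.5 and 44.7 CPM against 32.2, 25.8 and 34 CPM. In both KO NSD 2 stood alone and KO NSD 1 lay close to high salt.

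Chaperones of the endoplasmic reticulum (ER) made up part of that set. These proteins fold secreted proteins, and the unfolded protein response raises their transcription through the ER stress element, a promoter motif. Hspa5, the ER chaperone BiP, stood at 288, 1635 and 774 CPM on normal salt and 490, 487 and 513 CPM on high salt. Hyou1, another ER chaperone, stood at 84.0, 467 and 217 CPM against 115, 140 and 164 CPM. High salt thus lay between KO NSD 1 and the other normal salt libraries in both genes. Of 13 ER folding genes, chosen after their values were seen, KO NSD 2 was the highest normal salt library in 13 and KO NSD 1 the lowest in 12, and KO NSD 2 was above all 11 other libraries in 11. Hspa5 had a ratio of highest to lowest library of 5.69 within KO NSD and 1.05 within KO HSD, and for Creld2, an ER protein induced by stress, the ratios were 10.1 and 2.32. The log2 fold change of Hspa5 was -0.85 ± 0.46 (SE, adjusted p = 0.705, edgeR) with all libraries and -1.71 (adjusted p = 0.254) against KO NSD 2 alone.

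The promoters of 3 of these genes, each holding a match to this motif, are shown as examples. They run from 250 bases before to 50 bases after the start of the gene on GRCm38.p6, from RefSeq, 5′ to 3′ on the gene's strand, and capitals mark matches on either strand to the ER stress element, searched as CCAAT and CCACG with 9 bases of any kind between them. The windows are chr2:34771840-34772139 (plus strand) for Hspa5, chr10:86705395-86705694 (minus strand) for Hsp90b1, the ER member of the HSP90 family, and chr15:88819396-88819695 (plus strand) for Creld2.
Hspa5: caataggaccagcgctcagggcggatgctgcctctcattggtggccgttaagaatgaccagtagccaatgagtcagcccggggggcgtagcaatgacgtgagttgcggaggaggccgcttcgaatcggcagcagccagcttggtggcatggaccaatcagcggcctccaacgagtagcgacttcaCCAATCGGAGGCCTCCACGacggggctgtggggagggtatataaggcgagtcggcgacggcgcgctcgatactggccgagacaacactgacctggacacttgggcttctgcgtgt
Hsp90b1: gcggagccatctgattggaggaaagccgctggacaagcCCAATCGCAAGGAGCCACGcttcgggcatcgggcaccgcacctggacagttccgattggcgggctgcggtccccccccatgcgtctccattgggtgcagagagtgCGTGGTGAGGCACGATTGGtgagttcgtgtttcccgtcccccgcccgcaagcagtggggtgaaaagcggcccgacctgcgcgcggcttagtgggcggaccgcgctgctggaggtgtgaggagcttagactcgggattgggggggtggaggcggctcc
Creld2: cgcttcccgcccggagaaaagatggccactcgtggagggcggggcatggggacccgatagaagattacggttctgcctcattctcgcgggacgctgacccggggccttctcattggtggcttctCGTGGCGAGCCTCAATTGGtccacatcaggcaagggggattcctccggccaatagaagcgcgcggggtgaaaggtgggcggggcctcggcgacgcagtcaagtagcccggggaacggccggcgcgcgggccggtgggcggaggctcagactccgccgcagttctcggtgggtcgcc
The motif was found in 6 of the 11 ER genes with a promoter in the table (54.5%) and in 39 of 32851 promoters of the same length (0.119%). Since the element is already known as one of ER chaperone promoters, the higher share in these genes was given in advance. It is not a result of these data. Among the 6, the ratio of highest to lowest KO NSD library ran from 1.91 (Canx) to 10.1 (Creld2). In the genes of the 11 without a match it ran from 1.57 (Herpud1) to 8.94 (Sdf2l1). A match is a description of the sequence and says nothing on whether a factor was bound in these livers. Hsp90b1 stood at 411, 1832 and 1008 CPM on normal salt and 626, 495 and 1059 CPM on high salt, and Creld2 at 18.6, 188 and 65.0 CPM against 23.0, 32.9 and 53.4 CPM.

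Whether salt acted differently under the labelled knockout than in the wild type was tested as an interaction. No gene passed (0 of 13051 genes, edgeR; smallest adjusted p = 0.835), with 706 at an unadjusted p under 0.05 (5.41%). DESeq2 called 10 and limma-voom 0. Taken across genes, none of which is an independent replicate, the salt log2 fold changes of the labelled knockout and of the wild type had a Pearson r of -0.05 and a Spearman rho of -0.01. The list medians in the wild type, beside those of the knockout, were -1.05 for neutrophil markers, 0.35 for macrophage markers, -0.79 for interferon response and 0.12 for female-biased genes, and the differences between the genotypes at the level of lists were not tested.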

How the data were processed

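Expected counts for every gene and library were deposited, with FPKM values beside them. The submitters' processing notes name Bowtie2 2.2.5, RSEM 1.2.8 and the build mm10. The sources used here give neither gene annotation nor strandedness, so genes with near-identical copies (Cyp2c, Cyp3a, Sult2a, Mup), overlapping genes and antisense genes are uncertain. The deposited FPKM values served only to estimate effective length.

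Expected counts were rounded. The 12 libraries of 4 groups (KO and WT, each diet) entered 1 fit of group means in edgeR 4.0.16 on R 4.3.3 (TMM, filterByExpr, robust quasi-likelihood test), adjusted by Benjamini-Hochberg over 13051 genes; the threshold was 0.05. The fit was checked on simulated counts with the same relative spread for every gene, a simpler setting than these data. Alternatives used DESeq2 1.42.0 and limma 3.58.1. An exact permutation test of 3 against 3 cannot give a p below 0.1. The 3 additional wild-type libraries were left out, since their titles carry no genotype. Of 18131 genes, 18009 matched RefSeq on GRCm38.p6.

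Named genes were Sirt3, Y-linked genes, the 10 with the smallest p per direction (at least 1 CPM) with and without KO NSD 1 and 3, and up to 4 per list by smallest p; a few that the rule names are not reported here, and others are said to be chosen after their values were seen. The members and the 39 lists were chosen with earlier results of these data known.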

Additional observations from a re-analysis of the deposited data

How the results depend on the processing

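The count of genes called between the diets was 0 in the edgeR fit, and also 0 with RLE scaling, with no filter, with limma-voom, in the 6 knockout libraries alone, and without KO NSD 1 and 3. Further alternatives were chosen after seeing the data, an effective length covariate and leaving out KO NSD 1, KO NSD 3 and KO HSD 1 together, and each gave 0. DESeq2 called 50 and, for the interaction, 10. Leaving out 1 library at a time gave 0 to 21 genes between the diets and 0 to 8 for the interaction. Without KO NSD 2 the 21 genes included the 4 Y-linked genes, Sult2a1, Sult2a2, Cyp3a41a, C8a and Egfr, and without KO HSD 1 the 2 genes were Ltf and Rcan2. The interaction called 8 without KO NSD 2, 4 without WT HSD 3, and 1 without each of WT HSD 1, WT NSD 3 and KO NSD 3.

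In the knockout groups the deviations of same-numbered libraries had correlations of 0.183, -0.123 and -0.026. Those of differently numbered libraries ran from -0.357 to 0.35. These values cannot settle whether the replicate numbers pair the samples, since the deviations within a group depend on each other. In the wild type, WT NSD 3 and WT HSD 3 lay together on the second principal component, at -20.92 and -19.55. With a replicate block the 12 libraries gave 1 gene between the diets (Ngp, adjusted p = 0.0258) and 0 for the interaction, and the 6 knockout libraries with a replicate block gave 1 (Cyp3a41b, adjusted p = 0.0386).

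Some log2 fold changes turned sign, and the cause was not tested. Without KO NSD 1 and 3 they were -0.053 for Eif2s3y, 0.19 for Ctss, 6.02 for Cyp3a41a and 1.70 for Cyp3a41b, whose remaining levels were near 0. With KO HSD 1 also left out they were -0.014 for Ddx3y, -0.15 for Kdm5d, -0.21 for Eif2s3y, 0.29 for Ctss, 0.11 for Cdh5, 5.51 for Cyp3a41a and 0.475 for Cyp3a41b. Leaving out 1 library at a time gave ranges of -0.044 to 0.774 for Tmem50a, -0.021 to 1.169 for Calcoco1, -2.326 to 0.721 for Myom3, -0.991 to 0.06 for Sdsl and -0.951 to 0.037 for Hsp90b1; in each the sign turned without KO NSD 2.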
